A study of Pseudopodoces humilis with 2 samples.

Results

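Transcription units assembled as spliced loci in muscle and not in liver were examined in the ground tit (Pseudopodoces humilis), a high-altitude songbird of the tit family. A spliced locus is a stretch of a scaffold covered by 1 or more assembled transcripts that have at least 2 exons. Of 12991 spliced loci found when both muscle assemblies were pooled, 1927 (14.8%, Wilson 95% interval 14.2 to 15.5) lay in muscle assembly 2 and in muscle assembly 3 and shared no base with a spliced liver locus. These 1927 loci are called muscle-only loci here, a name that refers to spliced loci alone. At 330 of them (17.1%) a liver transcript of 1 exon shared a base, and the name does not mean that liver RNA was absent. The loci were chosen by the measured assemblies themselves. Their presence in muscle and their absence from the spliced liver loci are thus given as a description and not as a finding.

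The series holds 1 liver sample and 1 muscle sample, each made from total RNA, and labelled with the tissue and with no age, sex, strain or treatment. Liver has 1 transcript assembly and muscle has 2, numbered 2 and 3 by the authors, and both muscle assemblies belong to the same sample. There were no replicates of a tissue, so no difference between tissues was tested. The labels do not say whether the muscle assemblies came from separate birds or which muscle was taken. The files used here pair no gene ID with a name, so the labelled tissues could not be checked against marker genes and no locus is given a gene name.

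Read totals recovered from the gene table were 46313678 for liver, and 86472618 and 47542891 for muscle if its column is the mean of 2 libraries, which the files do not state. Nothing tied either muscle total to either muscle assembly. The liver assembly held 17536 spliced transcripts in 11413 loci, muscle assembly 2 held 21109 in 12837 loci, and muscle assembly 3 held 19743 in 12332 loci. Spliced transcripts covered 32.2 Mb of exon in liver, 41.8 Mb in muscle assembly 2 and 37.8 Mb in muscle assembly 3. Since read depth can set which transcripts are assembled, a liver transcript of low level and a transcript absent from liver cannot be told apart from these assemblies. In bulk tissue, fewer cells of a type and less RNA per cell cannot be told apart either.

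As background, most vertebrate genes are split into exons, and the introns between them are removed from the RNA by splicing. A spliced read that bridges an intron shows where it starts and ends and on which strand the gene lies. Striated muscle is known for very long spliced messages, such as those of the giant sarcomere proteins titin, nebulin and obscurin, which are built from repeated protein units, and for many alternative exons in its contractile genes. Connective tissue within muscle makes collagens, whose genes also have many short exons.

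Most spliced muscle loci were also found in liver. The class of both muscle assemblies and liver held 8977 loci, 69.1% of the pooled loci. Loci of muscle assembly 2 that were in neither of the other assemblies numbered 1212, and those of muscle assembly 3 alone numbered 235. Of the 3374 pooled loci that shared no base with spliced liver loci, 57.1% (55.4 to 58.8) were in both muscle assemblies, against 93.3% (92.8 to 93.8) of the 9617 that did share one. With a single muscle assembly in use, the share of loci with no base in common with spliced liver loci was 25.4% (24.7 to 26.2) for assembly 2 and 20.4% (19.7 to 21.2) for assembly 3. In the other direction, 7.12% (6.67 to 7.61) and 7.97% (7.49 to 8.48) of the spliced liver loci shared none with assembly 2 and assembly 3.

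**Figure D1:**
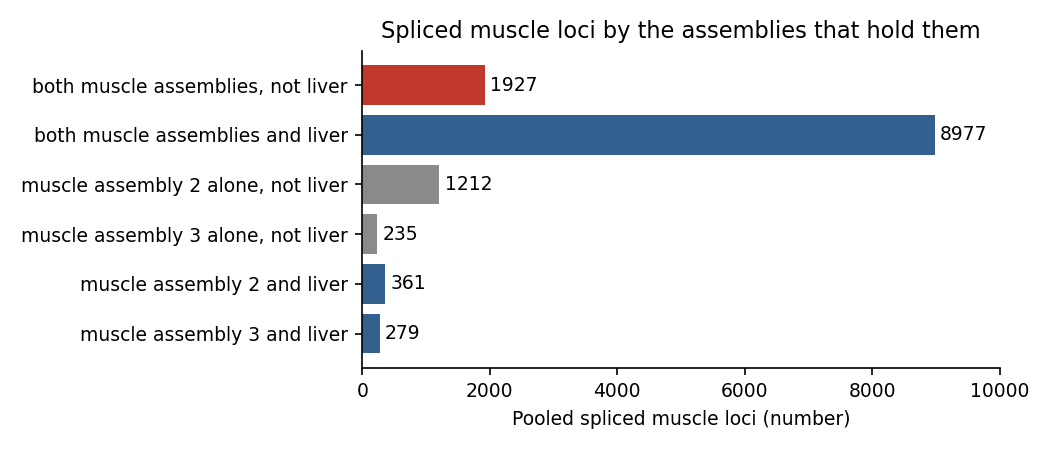
Number of pooled spliced muscle loci (x axis) by the assemblies that hold them (y axis), with 1 bar per class and its number beside it; red marks the muscle-only loci, blue the classes also in liver and grey the classes in 1 muscle assembly without liver. The 1927 muscle-only loci form the second-longest bar, after the 8977 loci of both muscle assemblies and liver.

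The border of the choice was within 100 bases at few loci and within 1000 bases at more. The muscle-only loci nearest to a spliced liver locus were 37, 51 and 52 bases away from it, on scaffolds 15493, 9551 and 21284. Just outside, loci on scaffolds 20120 and 22151 were left out for 8 and 10 shared bases. Altogether 7 muscle-only loci lay under 100 bases from a spliced liver locus and 187 lay under 1000 bases from one, while the median distance was 11329 bases over the 1510 on a scaffold with such a locus. Among the 8977 loci of both tissues, spliced liver loci covered 97.8% of the span in the median, and under 10% of it at 78 loci. They covered under 50% of the span at 813 loci (9.06%). The bases shared with them were 1000 or fewer at 387 loci.

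Muscle-only loci ranged from tiny fragments to very large transcription units. Each locus was represented by its transcript of greatest spliced length, that is, the summed length of its exons. The median muscle-only locus had 5 exons (quartiles 2 and 10, highest 140) and 1974 spliced bases (quartiles 770 and 3680, highest 30118). Its span on the scaffold, introns included, was 9407 bases in the median and 619400 bases at most. Loci of both muscle assemblies and liver had a median of 9 exons and 3050 spliced bases. Loci of 1 muscle assembly without liver had a median of 3 exons and 1131 spliced bases. The muscle-only loci thus stood between these classes on both measures, as the cumulative curves show.

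**Figure D2:**
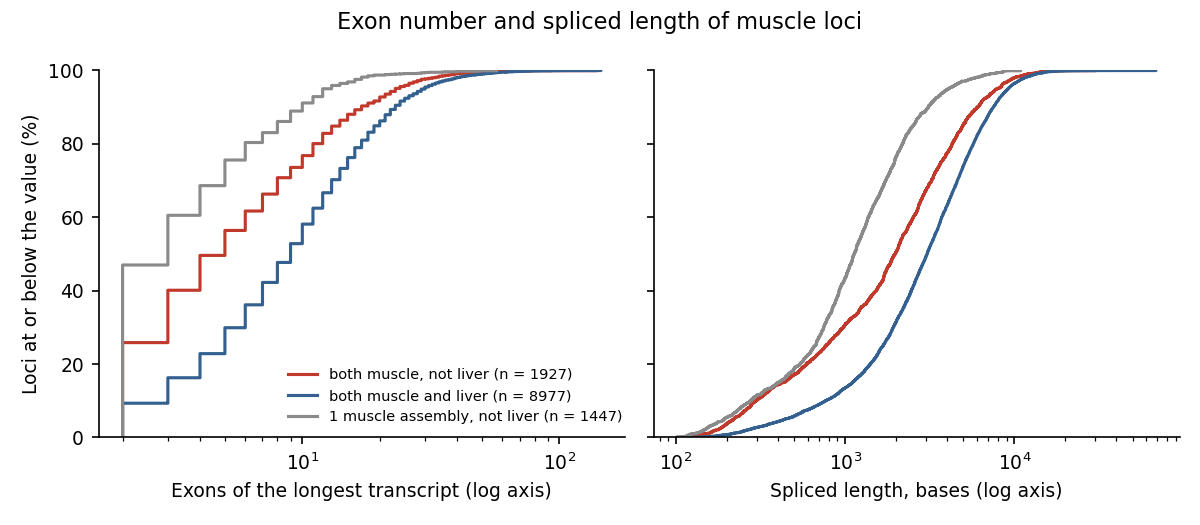
Share of loci (y axis, percent) at or below a number of exons (left, log axis) or a spliced length in bases (right, log axis), each for the longest transcript of a locus; 1 curve per class. The red curve of muscle-only loci runs between the grey curve of loci in 1 muscle assembly (median 3 exons) and the blue curve of loci also in liver (median 9 exons).

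Short structures made up a large part of the muscle-only loci. A representative of 2 exons, and so of a single intron, was found at 498 of 1927 loci (25.8%, 23.9 to 27.8), against 9.32% (8.74 to 9.94) of the loci also in liver. In loci of 1 muscle assembly without liver the share was higher, at 47.0% (44.4 to 49.6). Another 920 muscle-only loci (47.7%) had 3 to 9 exons. The remaining 509 (26.4%) had 10 or more, and 46 of these had 30 or more. The 498 loci of 2 exons had a median of 559 spliced bases over a span of 1223 bases, while the 46 loci of 30 or more exons had a median of 7173 spliced bases over 70202 bases. Representatives under 500 spliced bases numbered 329 and those of 10000 or more numbered 38. The Wilson intervals cover counting over loci alone, and loci are not replicates of a tissue.

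Introns of muscle-only loci held larger shares of both long and short ones than introns of loci also in liver. Across 15824 different introns the median was 966 bases (quartiles 376 and 2627), against 849 bases (385 and 1978) for 118583 introns of loci also in liver. Introns of 10000 bases or more made up 8.55% (8.12 to 8.996) of the former and 5.49% (5.36 to 5.62) of the latter. At 100000 bases or more there were 47 introns in muscle-only loci, 0.297% (0.223 to 0.395), and 96 in loci also in liver, 0.0810% (0.0663 to 0.0988). Short introns of 100 bases or fewer made up 6.81% (6.42 to 7.21) in muscle-only loci and 5.82% (5.69 to 5.96) in loci also in liver. In loci of 1 muscle assembly without liver, 5.59% (5.02 to 6.23) of introns had 10000 bases or more and 0.179% (0.0971 to 0.329) had 100000 or more. Their share of 100 bases or fewer was 8.26% (7.56 to 9.01), so a high share of short introns was not particular to muscle-only loci.

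Introns differed in length by their place in the transcript. Over the 1154 muscle-only representatives with at least 4 exons, the first intron counted from the 5′ end had a median of 1818 bases, the second 1217 bases and the last 847 bases. The first intron was the longest of its transcript in 436 of them (37.8%). The same order was seen in loci also in liver, with medians of 1694, 1100 and 814 bases and the first intron longest in 37.3%. First exons of the muscle-only representatives had a median of 147 bases, internal exons 125 bases and last exons 1091 bases. Last exons carry the end of the coding sequence and the 3′ untranslated region in most vertebrate genes.

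The muscle-only locus with the longest intron lay on scaffold 5962 from position 798103 to 1368442, on the plus strand. Its intron of 406699 bases, from 798469 to 1205167, was found with the same ends in both muscle assemblies. Its transcripts had up to 10 exons and 2887 spliced bases in assembly 2, and up to 5 exons and 1779 spliced bases in assembly 3. On scaffold 12659 a plus-strand locus spanned 619400 bases, the widest of all muscle-only loci, from 1111434 to 1730833. Its longest intron, of 276798 bases, was assembled in assembly 3 alone, although the locus had 44 and 45 exons and 6745 and 6754 spliced bases in assemblies 2 and 3. Longest introns of 245290, 213913 and 208985 bases followed on scaffolds 22645, 13906 and 22786, each with the same ends in both muscle assemblies. All 5 of these loci were on the plus strand and held no liver transcript of any kind.

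Internal exons of muscle-only loci were similar in length to those of other loci. Their median was 125 bases (quartiles 89 and 170) over 12450 different exons, against 123 bases (89 and 165) over 99563 exons of loci also in liver. Exons of 30 bases or fewer numbered 134, or 1.08% (0.910 to 1.27), against 0.747% (0.696 to 0.803). In loci of 1 muscle assembly without liver their share was 1.14% (0.854 to 1.52). An exon whose length is divisible by 3 can be joined or skipped without a shift of the reading frame. Such exons made up 42.9% (42.0 to 43.7) of the internal exons of muscle-only loci and 39.1% (38.8 to 39.4) of those of loci also in liver. In loci of 1 muscle assembly without liver the share was 41.7% (40.2 to 43.3). The gap between muscle-only loci and loci also in liver was smaller among loci under 30 exons, at 40.2% (39.3 to 41.2) and 38.2% (37.9 to 38.6). In the 46 muscle-only loci whose richest transcript had 30 or more exons it was 55.9% (53.7 to 58.0), against 42.5% (41.8 to 43.2) in 486 loci also in liver. Without the 5 loci with the most exons and the loci rich in short repeated exons described below, a choice made after the values were seen, it was 49.8% (47.4 to 52.2) over 41 muscle-only loci. The 5 loci with the most exons were taken out of the muscle-only loci alone, so this share has no matching value. Without the rich loci only, it was 53.3% (51.05 to 55.5) over 44 muscle-only loci and 41.8% (41.2 to 42.5) over 481 loci also in liver. Exons of 1 locus are not independent of each other.

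The locus with the most exons, and the greatest spliced length, was on scaffold 14488, on the minus strand from position 1001 to 118449. Muscle assembly 2 gave 1 transcript of 140 exons and 30118 spliced bases there, and muscle assembly 3 gave 1 of 41 exons and 18448 spliced bases. The transcript of assembly 2 was built from exons of repeated length. Of its 138 internal exons, 120 (87.0%) were divisible by 3, with 28 exons of 279 bases, 14 of 288 bases and 10 of 282 bases. An unbroken run of 48 exons had lengths between 270 and 290 bases, a range chosen after the values were seen. Its introns were short, with a median of 248 bases. Of the 40 introns of assembly 3 at this locus, 37 had exactly the ends given by assembly 2. Assembly 2 gave 139 introns here, so most of them were in assembly 2 alone. The run of 48 exons was therefore not found as a whole in both assemblies.

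A second type of repeated exon was found at loci rich in short exons. On scaffold 17613, a minus-strand locus from 5538 to 27716 had a transcript of 70 exons in assembly 2 with 14 exons of 54 bases, 11 of 45 bases and 11 of 36 bases among its 68 internal exons. All but 4 of these 68 were divisible by 3, and 50 were divisible by 9. Scaffold 11057 held a plus-strand locus from 98692 to 313327 with 61 exons, 31 of them internal exons of 54 bases, 6 of 45 bases and 5 of 36 bases. Here 46 of 59 internal exons were divisible by 9. Assembly 3 gave the same locus as 4 pieces of up to 19 exons, and all of its 49 introns were among the 60 of assembly 2.

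The length of 54 bases was the most common of all internal exon lengths in muscle-only loci, with 139 exons or 1.12% (0.946 to 1.32). In loci also in liver it made up 0.522% (0.479 to 0.569), and the most common length there was 96 bases. In loci of 1 muscle assembly without liver the length of 54 bases made up 1.34% (1.03 to 1.75), so a high share was not particular to muscle-only loci. A few loci carried the rank of 54 bases in muscle-only loci. In 4 muscle-only loci the transcript with the most exons had 10 or more internal exons of 36, 45 or 54 bases, as it had in 5 of the 8977 loci also in liver. These 4 loci held 67 of the 139 exons of 54 bases. Without such loci the length made up 0.587% (0.467 to 0.739) of the internal exons of muscle-only loci, below the length of 96 bases (72 against 131 exons), and 0.402% (0.364 to 0.443) in loci also in liver. Besides scaffolds 17613 and 11057 these were a plus-strand locus on scaffold 21079 from 1150246 to 1275524, with 13 such exons, and a minus-strand locus on scaffold 23062 from 1465387 to 1544422, with 15 such exons. Exons of 45 and 54 bases are known from vertebrate collagen genes, where they encode whole repeats of the collagen helix. The files do not say what these loci encode, and the lengths were singled out after the values were seen.

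The remaining loci named for their number of exons differed from each other. A minus-strand locus on scaffold 22624, from 935109 to 967810, had 79 exons and 12686 spliced bases in assembly 2 and 76 exons and 11990 spliced bases in assembly 3, and 75 of its introns were shared. Its most common internal exon length, 114 bases, occurred 5 times, and 49.4% of its internal exons were divisible by 3. On scaffold 16903, a plus-strand locus from 18149 to 128585 had 65 exons in assembly 2 and 37 in assembly 3, with 8 internal exons of 267 bases near its 5′ end and 1 of 3580 bases, its longest. The plot of exon lengths in order shows the plateau of long exons on scaffold 14488, a shorter one at the 5′ end on scaffold 16903 and the low bands of scaffolds 17613 and 11057.

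**Figure D3:**
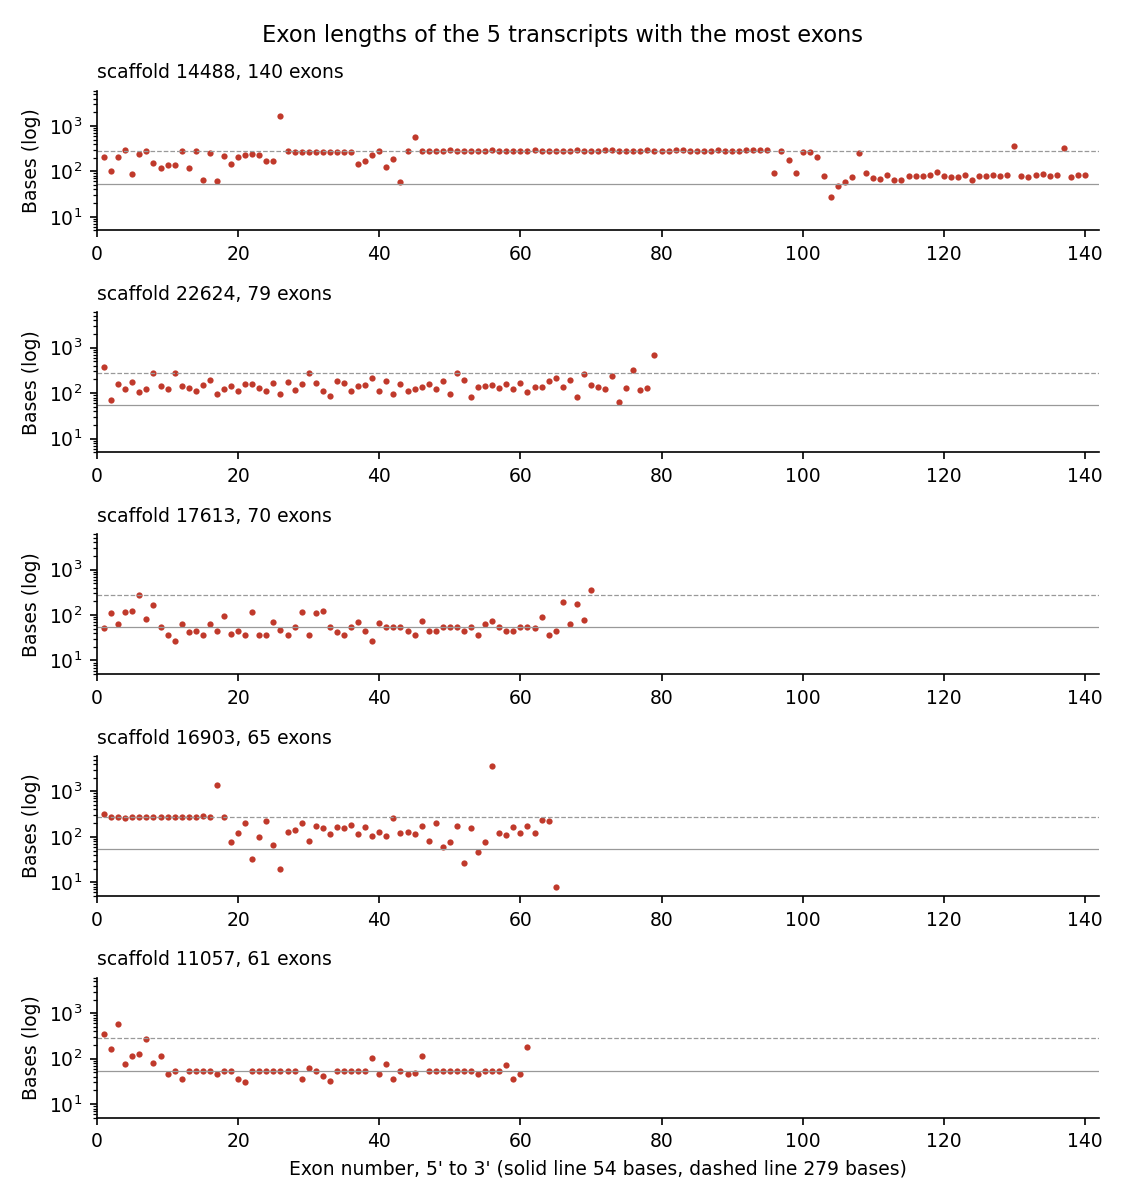
Length of each exon in bases (y axis, log axis) against its number from the 5′ end (x axis), 1 point per exon. Shown is the transcript with the most exons at each of the 5 muscle-only loci with the most exons, all from muscle assembly 2. On scaffold 14488, 48 consecutive exons of the 140 form a plateau near 279 bases (dashed line), and most exons on scaffolds 17613 and 11057 lie at or near 54 bases (solid line).

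Great spliced length did not need many exons. The second-longest spliced transcript came from a minus-strand locus on scaffold 22771, from 1199690 to 1333624, with 19555 spliced bases in 6 exons in assembly 2 and 11110 bases in 5 exons in assembly 3. Their 4 introns in common had the same ends, the longest of 48752 bases. On scaffold 20892, a locus from 560436 to 689281 held transcripts on both strands, with up to 34 exons and 18007 spliced bases in assembly 2 and up to 33 exons and 17908 spliced bases in assembly 3. On scaffold 16903 the longest transcript had 17452 spliced bases. On scaffold 5651, a locus from 732093 to 796812 with transcripts on both strands reached 15468 spliced bases in assembly 3 and 14434 in assembly 2. The loci on scaffolds 20892 and 5651 each also held a liver transcript of 1 exon.

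The muscle assemblies mostly gave the same introns at muscle-only loci. Of the 1927 loci, 1873 (97.2%, 96.4 to 97.8) had at least 1 intron with the same ends and strand in both assemblies. At loci also in liver the share was 99.6% (99.4 to 99.7). Intron ends were not used to choose the loci. Yet only loci with transcripts of both assemblies were kept, and others cannot share an intron, so the choice itself favoured these shares. Of all 15824 different introns, 11246 (71.1%, 70.4 to 71.8) were in both, against 84.0% (83.8 to 84.2) for loci also in liver. The overlap was uneven: assembly 2 held 91.0% (90.5 to 91.5) of what assembly 3 gave, and assembly 3 held 76.4% (75.7 to 77.1) of what assembly 2 gave. At loci also in liver these shares were 92.5% and 90.2%. Both assemblies come from 1 sample, so this is no check by replicates.

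Whole structures agreed less often than single introns. The representatives of both assemblies had the same full chain of introns at 1019 of 1927 loci (52.9%, 50.6 to 55.1), and any pair of isoforms did so at 1228 (63.7%). At loci also in liver these shares were 57.4% (56.4 to 58.5) and 74.4% (73.5 to 75.3). At 1213 muscle-only loci (62.9%) the representatives had the same number of exons. Assembly 2 had more exons at 541 loci and assembly 3 at 173. At 86 loci they were 10 or more exons apart, and assembly 2 had the higher number at 80 of these. The median was 5 exons and 1875 spliced bases in assembly 2, and 4 exons and 1397 spliced bases in assembly 3. At loci also in liver both assemblies had a median of 9 exons, with 2792 and 2624 spliced bases.

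**Figure D4:**
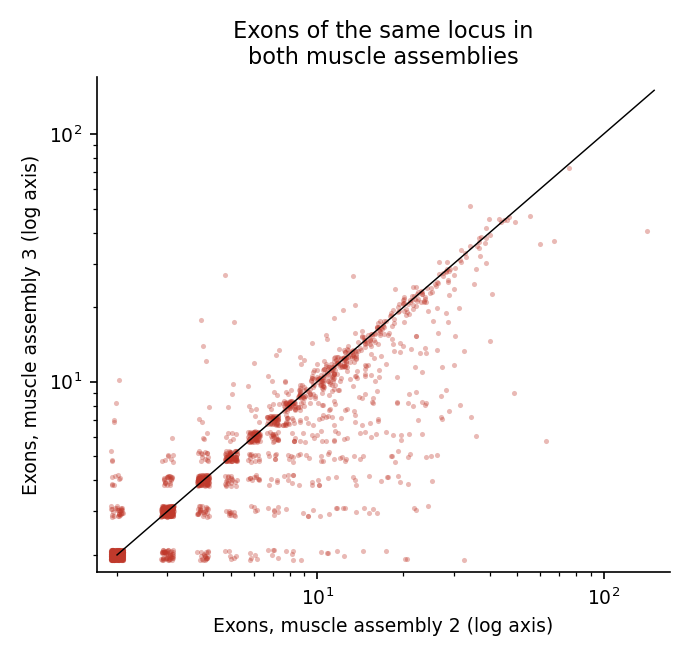
Exons of the longest transcript of each muscle-only locus in muscle assembly 2 (x axis, log axis) and muscle assembly 3 (y axis, log axis), 1 point per locus, with a small random shift so that points do not hide each other; the line marks equal numbers. Of 1927 loci, 1213 lie on the line before the shift, 541 lie below it and 173 above it.

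Some loci were broken into pieces. At 1762 muscle-only loci (91.4%) each muscle assembly had 1 spliced locus. Assembly 3 had more pieces than assembly 2 at 123 loci, and assembly 2 had more at 31. Of the 541 loci with more exons in assembly 2, 108 had more pieces in assembly 3, and 423 had 1 spliced locus in each. The 54 loci without an exact intron in common were mostly small, and 32 of them had a representative of 2 exons. At 5 of them the transcripts of the assemblies lay on opposite strands, so that they shared bases without being the same transcription unit. By exon class, an exact intron in common was found at 93.6% (91.1 to 95.4) of the loci of 2 exons, 97.7% of those of 3 to 9 exons, and 46 of 46 loci of 30 or more exons.

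More than 1 spliced isoform in at least 1 of the muscle assemblies was found at 982 muscle-only loci (51.0%, 48.7 to 53.2), against 64.9% (63.9 to 65.9) of the loci also in liver. Every spliced transcript of an assembly within a locus was counted as an isoform, on either strand and also in separate pieces. Assembly 2 gave 3118 isoforms at the muscle-only loci and assembly 3 gave 2839, with more than 1 at 41.6% and 33.3% of the loci. Different first splice sites, as made by alternative promoters or incomplete 5′ ends, were found at 59.6% (56.1 to 63.0) of the 775 cases of 2 or more isoforms on a strand in assembly 2. Different last splice sites were found at 40.8% of these cases, a cassette exon, which 1 isoform includes and another skips, at 28.8% (25.7 to 32.1), and an intron retained inside an exon at 9.29% (7.44 to 11.5). In assembly 3 the shares of 627 cases were 62.0%, 48.3%, 21.9% (18.8 to 25.3) and 7.34%. In loci also in liver, cassette exons were found at 31.0% and 31.1% of the cases in assemblies 2 and 3. Different first splice sites were found there at 59.8% and 59.9%, different last ones at 36.9% and 37.7%, and retained introns at 8.46% and 8.28%. Cufflinks scores each isoform against the most abundant one of its gene, with 1000 as the highest score. Of the Cufflinks genes at muscle-only loci, 766 of 2035 in assembly 2 and 542 of 2114 in assembly 3 had 2 or more spliced isoforms. The second isoform at muscle-only loci had a median score of 534 in assembly 2 and 572 in assembly 3. At loci also in liver it had 502 and 487.

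The most isoforms in 1 assembly were found on scaffold 16617, at a minus-strand locus from 632176 to 770484. It had 9 isoforms in assembly 2 and 8 in assembly 3, in 6 pieces in each, and 73 introns in common. Scaffold 22287 followed with 8 and 5 isoforms, in 3 and 2 pieces, at a minus-strand locus from 20318 to 73438. Isoforms in separate pieces of an assembly share no base, so these counts need not be of isoforms of 1 transcription unit. Whether the pieces belong to 1 gene was not tested. On scaffold 1155, a minus-strand locus from 891856 to 914390 had 3 isoforms in assembly 2 and 6, in 2 pieces, in assembly 3. Its isoforms had up to 34 and 26 exons. All 32 internal exons of its 34-exon transcript were divisible by 3, and 5 of them had 27 bases. Scaffolds 12228 and 14538 held loci with 6 isoforms in 1 assembly and with 2 and 3 in the other.

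Muscle-only loci were spread over 988 of the 2475 scaffolds with spliced muscle loci. A single one lay on 640 of these scaffolds, while 81 scaffolds with 5 or more held 584 of the 1927 loci (30.3%). On 403 of the scaffolds no spliced liver locus was present at all, and these held 417 muscle-only loci (21.6%, 19.9 to 23.5). Loci also in liver cannot lie on such scaffolds, so this share rests partly on the choice of loci. Scaffolds whose last assembled position was under 10000 held 18.6% (16.9 to 20.4) of the muscle-only loci and 7.57% (7.05 to 8.14) of the loci also in liver. Scaffolds assembled to position 1000000 or beyond held 49.5% (47.2 to 51.7) and 58.3% (57.3 to 59.4). Both strands were used about evenly, with 944 loci on the plus strand, 902 on the minus strand and 81 with transcripts on both.

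Some muscle-only loci were neighbours. In 215 groups, 478 loci (24.8%) lay next to each other with no other spliced muscle locus between them. The longest such row had 6 loci, on scaffold 5651. Muscle-only loci made up 14.8% of the pooled loci, so some would be neighbours by placement alone. How many was not tested, and the count is not read as clustering. Of the 263 neighbouring pairs, 145 were on the same strand, and 68 were both on the same strand and under 5000 bases apart. Pairs of the latter kind could be pieces of 1 gene, which was not tested. The median gap between neighbours was 6107 bases.

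The scaffold with the most muscle-only loci was 22645, with 22 among 96 spliced muscle loci, from position 151252 to 4088982, and with 59 loci of both muscle assemblies and liver. Scaffold 3513 held 18 of 93, and scaffolds 18915 and 5651 held 16 each, of 90 and 46. On these 4 scaffolds there was 1 muscle-only locus per 89.2 to 179 kb of the stretch between the first and the last. Scaffold 17417 was denser, with 13 of 27 loci between positions 15463 and 152385, or 1 per 10.5 kb. These 13 loci were small, with 2 to 4 exons and a median of 699 spliced bases, and 7 of them had 2 exons. Only 7 loci of that scaffold were in both muscle assemblies and in liver.

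Liver transcripts of 1 exon, which the choice of loci did not use, were present at 330 muscle-only loci (17.1%, 15.5 to 18.9). They shared a base with an exon at 325 of these. At 271 of the 330 loci (82.1%, 77.6 to 85.9) they lay on the last exon of the representative transcript. Last exons also had the greatest median length, as given above, and the share due to their length was not tested. The 420 liver transcripts concerned had a median of 1069 bases (130 to 8763), and they covered 45.2% of the spliced bases of the representative in the median (quartiles 25.2 and 69.3%). The other 1597 loci (82.9%, 81.1 to 84.5) shared no base with any assembled liver transcript.

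The gene table, from the same samples, gave a second but not independent view of the muscle-only loci. It lists RPKM, which scales reads by gene length and library depth, for 15394 genes without positions, so a gene could be set beside a locus only where it was alone on its scaffold. This held for 187 genes on scaffolds with a muscle-only locus. Their median level was 0.873 RPKM in muscle against 0.0737 RPKM in liver, and 180 of 187 (96.3%) were higher in muscle, against 78.8% of all genes and 81.4% of the 1617 genes alone on a scaffold. None was listed at 0 in muscle, and 33 were listed at 0 in liver, with 0.00623 to 171 RPKM in muscle. The share at 0 in liver, 17.6%, was close to the 18.9% of all genes alone on a scaffold. In liver 17 of them (9.09%) reached 1 RPKM, against 31.0% of all genes. In muscle 84 (44.9%) did, against 44.3% of all genes. These levels of the 187 genes rest partly on what chose the loci and are given as a description. For comparison, 472 genes alone on a scaffold with a locus of both tissues and no muscle-only locus had a median of 2.59 RPKM in muscle against 1.19 RPKM in liver. The definition of gene length behind RPKM is not given in the sources used here, so these medians compare unlike genes with that limit.

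On the scale of log2(RPKM + 1), 34 of the 187 genes (18.2%, 13.3 to 24.3) were at least 4-fold higher in muscle and 1 was at least 4-fold higher in liver. Over all genes of the table, 4.49% were at least 4-fold higher in muscle and 2.29% in liver. Over the 1617 genes alone on a scaffold these shares were 6.06% and 2.29%. Over the 472 genes on scaffolds with a locus of both tissues and no muscle-only locus they were 4.03% and 2.54%. With a pseudocount of 0.1 RPKM in place of 1 the count was 86 of 187, and with 5 RPKM it was 15. Table and assemblies share their samples, so these shares rest partly on what chose the loci, and nothing further is read from them. The 34 genes had 3.61 to 171 RPKM in muscle, with a median of 12.0, and at most 0.909 RPKM in liver, and 13 of them were listed at 0 in liver. The genes that were not 4-fold higher in muscle had a median of 0.629 RPKM in muscle. With a pseudocount of 1 RPKM a gene of low muscle level cannot pass 4-fold, so this contrast of levels was partly fixed by the measure.

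**Figure D5:**
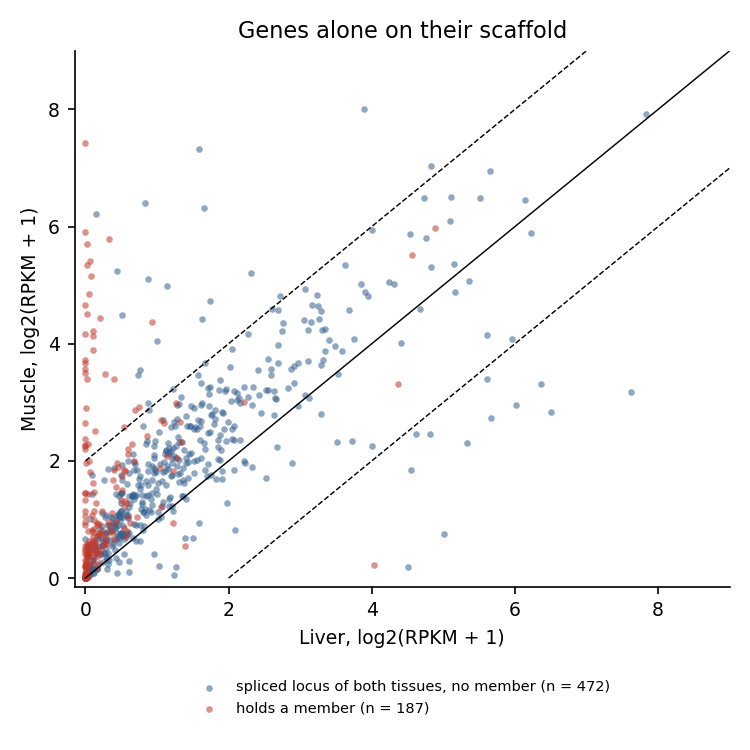
Muscle level (y axis) against liver level (x axis), both as log2(RPKM + 1), for genes alone on their scaffold; red points are the 187 genes on scaffolds with a muscle-only locus, blue points the 472 genes on scaffolds with a locus of both tissues and no muscle-only locus. The solid line marks equal levels and the dashed lines a 4-fold difference; 34 red points lie above the upper dashed line and 1 below the lower one.

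The highest muscle level belonged to evm.TU.scaffold194587.1, the gene alone on scaffold 194587. It stood at 171 RPKM in muscle and was listed at 0 in liver. The plus-strand locus on that scaffold, from 97 to 2315, was small, with 2 isoforms of up to 5 exons and 417 spliced bases in assembly 2 and 3 isoforms of up to 4 exons and 409 spliced bases in assembly 3. Next was evm.TU.scaffold20974.1 with 61.7 RPKM in muscle and 28.5 RPKM in liver, a difference of -1.09 (liver minus muscle). Its scaffold also held a spliced liver locus outside the muscle-only locus, so the liver level need not belong to the latter.

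Low liver levels were found for the other genes with the highest muscle levels. The gene evm.TU.scaffold21151.1 had 59.3 RPKM in muscle and was listed at 0 in liver, and its minus-strand locus from 233 to 1492 had 2 isoforms of up to 3 exons and 536 spliced bases in each muscle assembly. For evm.TU.scaffold21545.1 the values were 54.2 RPKM in muscle and 0.254 RPKM in liver, a difference of -5.46, and its locus from 156 to 1203 had 6 exons in both muscle assemblies. For evm.TU.scaffold18520.1 they were 50.7 and 0.0175 RPKM, a difference of -5.67, at a plus-strand locus of 3 exons from 22 to 2013. The muscle-only loci of these 5 genes all lay within the first 3077 bases of their scaffolds. With 1 sample per tissue none of these differences has a check by replicates.

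Genes in the direction of liver were few. The gene evm.TU.scaffold15493.1 reached 15.3 RPKM in liver against 0.164 RPKM in muscle, a difference of 3.81. Its scaffold holds the muscle-only locus that lay 37 bases from a spliced liver locus, and a liver transcript of 1 exon shared bases with the muscle-only locus itself. Which of these gave the gene's liver reads was not tested. For evm.TU.scaffold22380.1 liver had 19.6 and muscle 8.92 RPKM, for evm.TU.scaffold22834.1 1.64 and 0.465 RPKM, and for evm.TU.scaffold19650.1 1.34 and 0.930 RPKM. Each of these scaffolds also held a spliced liver locus, and on scaffold 22834 a liver transcript of 1 exon shared bases with the muscle-only locus. The fifth, evm.TU.scaffold3183.1, was near 0 in both tissues. Of the 17 genes at 1 RPKM or more in liver, 9 lay on a scaffold with a spliced liver locus, as did 26 of all 187, and of the 34 muscle-high genes 1 did. Liver RPKM and spliced liver loci come from the same sample, so these counts are not independent and are given as a description.

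Some muscle-only loci lay on scaffolds where the table lists no gene, a share not set beside that of other loci here. Of the 988 scaffolds, 214 had no gene listed, and these held 217 muscle-only loci (11.3%, 9.93 to 12.8). These were short, with a median of 2 exons and 264 spliced bases and at most 8 exons, and 172 of the 217 had 2 exons. The 194 muscle-only loci on scaffolds with the 187 genes were mostly short, with a median of 3 exons and 448 spliced bases, and 15 of them had a transcript of 10 or more exons. The richest was the 61-exon locus on scaffold 11057, whose gene evm.TU.scaffold11057.1 had 0.0293 RPKM in muscle and 0.00103 RPKM in liver. The gene on the scaffold with the longest intron, evm.TU.scaffold5962.1, had 0.00638 RPKM in muscle and 0.00187 RPKM in liver. Both genes were named here after their values were seen. Whether these genes are the loci, and whether their length counts introns, is not given, so these RPKM values do not show that the loci were low.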

How the data were processed

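Liver and muscle RNA was made into libraries with an Illumina TruSeq kit, per the labels' protocols. The submitters' processing notes name TopHat, and the assembly files name Cufflinks, while versions, options and the genome build were not given in the sources used here. What the authors deposited was scaffold positions of transcripts and exons (exon rows called CDS). The deposited assemblies also hold a Cufflinks score per transcript, from 100 to 1000. The deposited gene table holds RPKM, per the file headers. Its 3 rows that name no gene were left out: reads in no feature (24.3% of liver and 30.6% of muscle reads), ambiguous ones (0.0635% and 0.217%) and those not aligned uniquely (2.80% and 4.13%).

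Spans of transcripts with 2 or more exons were merged where they shared 1 base, on either strand, within each assembly and over both muscle assemblies. A locus was kept if it overlapped loci of both muscle assemblies and no spliced liver locus. The merging was tested on simulated transcripts, where the class of all 217 loci was as by a base-by-base count. Introns were matched by both ends and strand. The liver read total was the smallest number that made the left-out rows whole reads, and both muscle totals were taken from muscle-to-liver RPKM ratios that recurred in 48 and 30 genes, on the assumption that the muscle column is the mean of 2 libraries with 1 read in 1 of them. Differences are log2(liver RPKM + 1) minus log2(muscle RPKM + 1), which understates those of low genes. Shares have Wilson 95% intervals, for counting only. No p-value was computed.

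Named loci were the 5 highest by exons, spliced length, longest intron and isoforms in 1 assembly, the 5 scaffolds with the most loci, and, of genes alone on a scaffold (the listed gene being number 1), the 5 with the highest muscle RPKM and the 5 furthest towards liver. The loci, lists and alternatives were chosen with earlier results of these data known. Lists of muscle gene names could not be used, and no sequence is shown, since no reference genome was used here. Python 3.11.15, numpy 2.4.6, statsmodels 0.14.6 and matplotlib 3.10.9 were used.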

Additional observations from a re-analysis of the deposited data

How the results depend on the processing

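The number of muscle-only loci, 1927, was 1492 with 3 or more exons, 2184 with strands kept apart, 2740 if liver had to cover 50% of a locus, 1597 if any liver transcript excluded it, 1934 if exons had to share a base, 1873 with an exact intron in both muscle assemblies and 1843 with transcripts of 200 or more spliced bases, all within 1.5 times. With 3 or more exons, by construction, the median rose to 7 exons and 2487 spliced bases, 72.3% of introns were in both muscle assemblies, 46.7% of loci had the same intron chain and 56.6% had several isoforms. The median spliced length was 1397 bases in assembly 3 alone and 1851 for the transcript with the most exons. With representatives alone 67.1% of introns were in both assemblies. Several isoforms were found at 41.6% and 33.3% of loci in assembly 2 and 3 alone. The 34 genes at least 4-fold higher in muscle became 86 and 15 with pseudocounts of 0.1 and 5 RPKM, where 13.6% and 1.65% of all genes passed, and 25 after centring on genes of both tissues (shift -0.57), where 2.64% did. They were 32 of 151 where the muscle-only locus was the only spliced muscle locus, an alternative chosen after the data were seen. Exons of 54 bases fell from 1.12% to 0.587% of internal exons, and those divisible by 3 from 42.9% to 42.1%, without the 4 loci rich in exons of 36, 45 or 54 bases, also chosen after the data were seen. No paired analysis was possible because each tissue has 1 sample. Assembled transcripts carry no read counts, so the level below which a liver locus would not be assembled is unknown.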
